A study of Mus musculus with 2 samples.

Results

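The regions described here are the strong H3K36me2 regions called in the colon library of Nsd2fl/fl mice that had no counterpart in the library of Nsd2ΔIE mice. They were chosen by the summed signal that the authors give for each called region and by the lack of overlap between the lists. The strongest 25% of the Nsd2fl/fl list, 4994 of 19976 regions, were taken, and those on autosomes that shared not even 1 bp with any of the 23518 Nsd2ΔIE regions were kept. This left 2217 members, out of 43494 regions in both lists together. The remaining 2771 autosomal regions of the strongest 25% overlapped a Nsd2ΔIE region and are called shared strong regions below. The 6 strong regions outside the autosomes all overlapped a Nsd2ΔIE region, so that the limit to autosomes removed no candidate. The members made up 44.4% of the strong autosomal Nsd2fl/fl regions, against 65.9% of regions without overlap in the whole Nsd2fl/fl list. When the same rule was applied with the lists exchanged, 2995 of 5873 strong autosomal Nsd2ΔIE regions, or 51.0%, had no Nsd2fl/fl counterpart, and these regions serve as the mirror set. Strong regions without a counterpart were thus present in both directions, and in a larger share of the Nsd2ΔIE list.

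H3K36me2 was profiled by CUT&Tag, in which an antibody against the mark tethers the transposase Tn5 so that nearby DNA is cut and tagged for sequencing. There was 1 library from the colon of Nsd2fl/fl mice and 1 from the colon of Nsd2ΔIE mice, which lack Nsd2 in the intestinal epithelium through a Cre recombinase driven by the Villin promoter. Both groups were male C57BL/6J littermates, 7 to 8 weeks old at the start, and both were fed HFCD, for 18 weeks by the methods of the study and for 16 weeks by the deposited design text. Whole colon tissue was used, so that immune, stromal and muscle cells, in which the Cre is not expected to act, are part of both libraries, and the number of animals behind a library is not given in the sources used here. With 1 library per genotype, the differences between the lists have no replicate check and no test between the genotypes was made. The intervals below are 95% Wilson intervals for shares, 95% Newcombe intervals for differences of shares and 95% order-statistic intervals for medians. They cover counting error over the regions of these 2 libraries only. The number of reads behind each library is unknown.

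NSD2 is a histone methyltransferase that adds the dimethyl mark to lysine 36 of histone H3. The mark spreads over broad domains of gene bodies and of intergenic chromatin, and it is read by proteins with a PWWP domain such as the DNA methyltransferase DNMT3A. In gene bodies, SETD2 converts the state to H3K36me3 along with transcription, and demethylases of the KDM2 and KDM4 families remove methyl groups from the same residue.

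Of the 2217 members, 524 covered the transcription start site (TSS) of the gene that the authors named for them, and these gave 517 genes. A promoter was found by symbol for 355 of them, or 68.7%, in the RefSeq promoter table of build GRCm38.p6, which is too few for a statement on the base composition of all. The promoters shown are those of the genes of the lists described below whose TSS lay in a member, whose only table entry was this 300-base window from 250 bases before to 50 bases after the start, and whose gene length was the same in the lists and in the table. They show the sequence around starts that lay in a member, from CpG-rich to CpG-poor, and a member need not cover the whole window. Each is written 5′ to 3′ on the gene's strand with CG dinucleotides in capitals.
Dusp1: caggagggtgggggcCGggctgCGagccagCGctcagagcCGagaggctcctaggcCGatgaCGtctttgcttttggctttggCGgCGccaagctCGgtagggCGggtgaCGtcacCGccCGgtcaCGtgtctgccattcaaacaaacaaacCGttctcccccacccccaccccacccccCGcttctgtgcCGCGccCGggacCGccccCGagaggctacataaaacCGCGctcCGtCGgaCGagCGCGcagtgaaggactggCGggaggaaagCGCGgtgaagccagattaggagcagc
Isx: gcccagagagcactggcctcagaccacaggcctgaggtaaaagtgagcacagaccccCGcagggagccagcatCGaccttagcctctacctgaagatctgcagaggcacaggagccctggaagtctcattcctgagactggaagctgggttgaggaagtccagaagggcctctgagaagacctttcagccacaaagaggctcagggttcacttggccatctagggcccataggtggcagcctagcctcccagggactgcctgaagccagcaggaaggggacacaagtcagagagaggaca
Tcf7l1: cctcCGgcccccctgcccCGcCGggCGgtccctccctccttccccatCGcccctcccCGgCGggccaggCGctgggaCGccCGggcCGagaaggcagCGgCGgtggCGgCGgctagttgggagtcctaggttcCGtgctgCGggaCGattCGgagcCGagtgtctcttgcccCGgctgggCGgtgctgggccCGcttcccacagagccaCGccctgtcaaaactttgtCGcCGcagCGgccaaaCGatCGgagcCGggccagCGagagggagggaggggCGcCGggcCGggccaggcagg
Cldn4: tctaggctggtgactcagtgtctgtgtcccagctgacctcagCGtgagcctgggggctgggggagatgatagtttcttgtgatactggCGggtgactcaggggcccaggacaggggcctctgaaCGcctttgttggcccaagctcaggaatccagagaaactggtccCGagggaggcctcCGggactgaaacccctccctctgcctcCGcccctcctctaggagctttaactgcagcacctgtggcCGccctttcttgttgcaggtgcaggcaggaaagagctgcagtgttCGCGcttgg
The Dusp1 window (chr17:26508423-26508722, minus strand) held 31 CG dinucleotides and the Tcf7l1 window (chr6:72788996-72789295, minus strand) held 34. The Cldn4 window (chr5:134946885-134947184, minus strand) held 9 and the Isx window (chr8:74872924-74873223, plus strand) held 2, whereas the median over all 32851 promoters of the table was 7. The letters GGGCGG, searched on both strands, occurred in the windows of Dusp1, Tcf7l1 and Cldn4 and in 35.7% of all promoters of the table. The letters TATAAA, searched likewise, occurred in none of these 4 windows and in 13.6% of all promoters. Members therefore covered starts whose windows had very different CG content. All coordinates of called regions below are those printed in the lists, whose build differs from GRCm38.p6.

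By the rule, the members had a high summed signal, and within this range they lay toward its lower end. Their summed signal had a median of 39815 (95% interval 39407 to 40189) and ran from 33590 to 138755, while the shared strong regions had a median of 47591 and reached 2192309. The weakest member was still 1.54 times the lowest value listed in its own library, 21783. It was also 2.03 times the lowest value in the Nsd2ΔIE list, 16571, although no common scaling of the libraries is stated. The members next to the threshold were a region at Gm9195 with a summed signal of 33591 and one in Nup214, a nuclear pore gene, with 33590. The nearest regions without overlap just below it were at Rps6kl1 with 33588 and Syn3 with 33587. A member was 6553 bp wide at the median (6464 to 6624), with a range of 3195 to 21115 bp, against 7297 bp for shared strong regions. Signal per bp was 6.31 at the median in members and 6.65 in shared strong regions. Together the members covered 14.9% of the length called in the Nsd2fl/fl library.

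**Figure D1:**
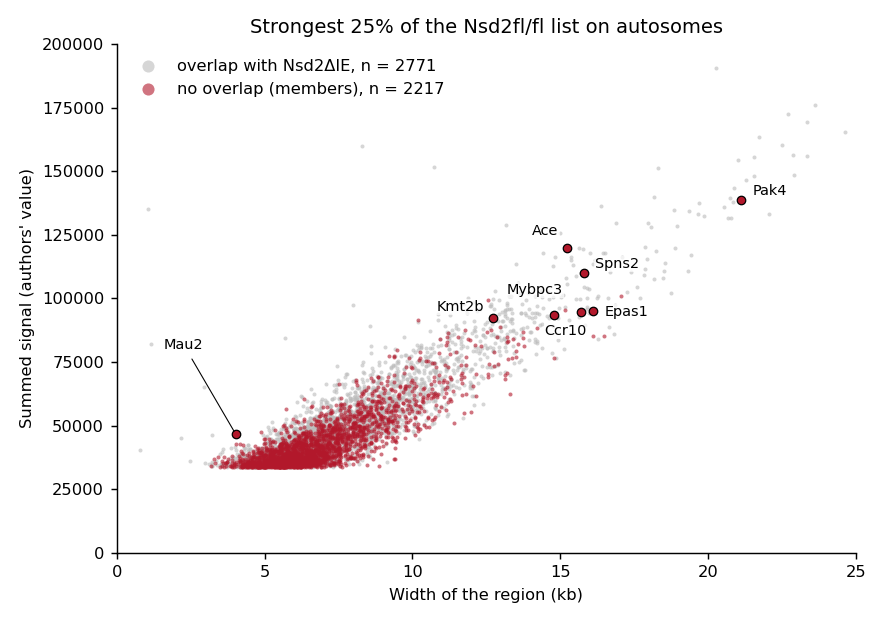
Summed signal, in the authors' unit, against width in kb for the 4988 strong autosomal regions of the Nsd2fl/fl list, with members in red drawn over shared strong regions in grey. Members fill the lower left and thin out above a summed signal of 100000, where only 4 members stand, Pak4, Ace and Spns2 among them. A further 11 shared strong regions lie outside the axes, which end at 25 kb and 200000.

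The 10 strongest members had summed signals of 92213 to 138755, and 8 of them covered a TSS. The strongest lay at Pak4, a p21-activated kinase of the cytoskeleton (chr7:28274478-28295592). It spanned 21115 bp with a summed signal of 138755, which placed it at rank 37 of the whole list, and the nearest Nsd2ΔIE region began 9.97 kb away. It was also the widest member, and it extended mainly upstream of the Pak4 TSS, with its maximum at -8786 bp from it. At Ace, the angiotensin-converting enzyme, a member of 15240 bp had a summed signal of 119998 (chr11:105856266-105871505). Only 688 bp separated it from a Nsd2ΔIE region with a summed signal of 17575. At Spns2, a sphingosine-1-phosphate transporter, the value was 110067 over 15785 bp (chr11:72360227-72376011) and the gap was 11 kb.

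Further down this group, Epas1, which encodes the hypoxia-inducible factor HIF-2α, held a member of 16113 bp in its first intron with a summed signal of 95100. Ccr10, a chemokine receptor, had 94500 over its TSS. Mybpc3, a myosin-binding protein of heart muscle, had 93645 in the 3′ UTR of a transcript. Kmt2b, an H3K4 methyltransferase, had 92213 over a region of 12739 bp that ran from -0.213 kb to 12.5 kb around its TSS. For 6 of these 10 genes, Pak4, Ace, Ccr10 and Kmt2b among them, no Nsd2ΔIE region carried the gene's name. Nsd2ΔIE regions named for neighbouring genes could still lie close. That nearest to the Ccr10 member, named for Plekhh3, was 4.36 kb away, and that nearest to the Kmt2b member, named for Zbtb32, 1.77 kb. The Nsd2ΔIE regions nearest to the 10 members had summed signals of 16643 to 27893. The whole Nsd2ΔIE list had a lowest value of 16571 and a median of 20540, and its strongest 25% on autosomes began at 25215. The regions nearest to the Mybpc3 member, with 27893, and to the Kmt2b member, with 27031, were thus among that strongest 25%.

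The members with the highest signal per bp were narrow. The 10 densest were 3195 to 4273 bp wide and had 9.90 to 11.6 units per bp. They were led by a region 1 to 3 kb from the TSS of Mau2, a loader of cohesin on chromatin, with a summed signal of 46588 over 4027 bp. Next came an exon region of Unc13d, which serves granule release in immune cells, with 11.2 units per bp, and a 5′ UTR region at Mark4, a microtubule-affinity kinase, with 10.6. A promoter region of Atp5d, a subunit of the ATP synthase, also had 10.6, and one of Pxn, the focal adhesion protein paxillin, had 10.4. All 10 of these lay less than 10 kb from a Nsd2ΔIE region, at most 9.24 kb.

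Regions with a higher summed signal more often had a counterpart. The strong autosomal Nsd2fl/fl regions were divided by summed signal into 10 classes of equal size. In the weakest class, 298 of 499 or 59.7% (55.4% to 63.9%) were members. The share was 53.0% in class 5, 38.7% in class 7 and 14.1% (11.3% to 17.4%), or 70 of 498, in the strongest class. In the mirror set the share went from 61.7% in the weakest class to 20.1% in the strongest. Since summed signal chose the members, these shares are a description only.

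**Figure D2:**
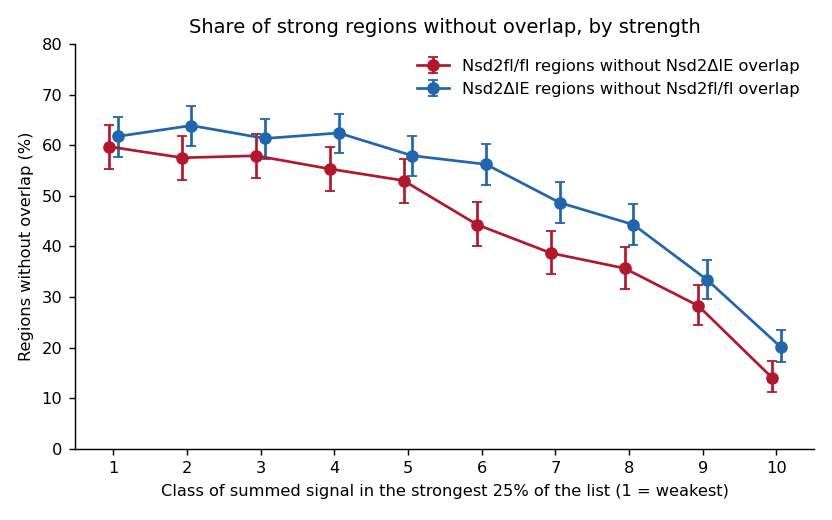
Percentage of strong autosomal regions without overlap in the other list, in 10 equal classes of summed signal from weakest (1) to strongest (10), for each library. Points are shares and bars are 95% Wilson intervals. The share fell from 59.7% to 14.1% in the Nsd2fl/fl library and from 61.7% to 20.1% in the Nsd2ΔIE library. Median width rose over the same classes, from 5428 to 12735 bp and from 3998 to 8733 bp.

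Where the members lay in the genome was not part of the rule. By the authors' annotation, 820 members lay at promoters, defined as within 3 kb of a TSS, a share of 37% (35.0% to 39.0%). Shared strong regions lay there more often, at 46.6% (44.7% to 48.5%), a difference of -9.60 percentage points (-12.3 to -6.85). Most of this came from the 1 kb next to the TSS, with 29.0% of members against 36.4% of shared strong regions. Instead, 325 members or 14.7% (13.2% to 16.2%) were distal intergenic, against 7.0% (6.11% to 8.01%) of shared strong regions. Introns held 18.3% of members and 11.5% of shared strong regions, with the excess of members both in the first intron (6.81% against 4.29%) and in later introns (11.5% against 7.22%). The 3′ UTR held 8.34% and 11.5%. For exons, 16.6% against 18%, and for the 5′ UTR, 4.42% against 4.84%, the interval of the difference included 0. Inside or next to a gene lay 85.3% of members, against 93% of shared strong regions and 81.6% of the other 17752 autosomal Nsd2fl/fl regions. Members were thus at promoters less often than shared strong regions but more often than the rest of the list, of which 31.5% lay there, a difference of 5.46 points (3.36 to 7.60). The distal intergenic share of the rest of the list was 18.4%, above that of the members.

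**Figure D3:**
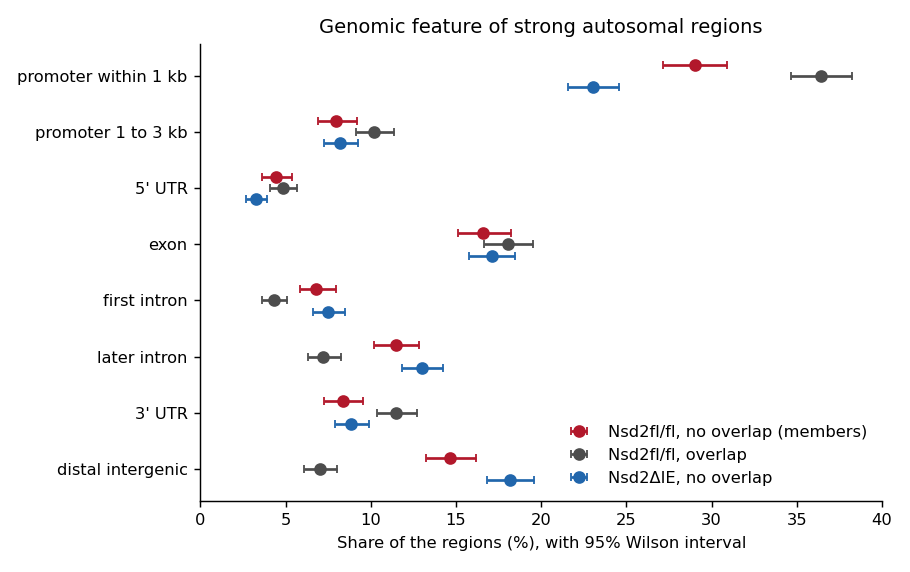
Share of regions in each genomic feature of the authors' annotation, in percent, for the members, the shared strong Nsd2fl/fl regions and the mirror set of strong Nsd2ΔIE regions. Bars are 95% Wilson intervals. Shared strong regions have the largest share within 1 kb of a TSS, 36.4%, and the smallest distal intergenic share, 7.0%.

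The mirror set showed the same kind of contrast against its own shared regions. There, promoters held 31.3% of unshared and 40.6% of shared strong Nsd2ΔIE regions, a difference of -9.33 points (-11.8 to -6.88), and the distal intergenic shares were 18.2% and 8.76%. Set directly against the mirror set, the members had 5.73 points more at promoters (3.13 to 8.34) and 3.50 points fewer in distal intergenic sequence (-5.51 to -1.47 as the difference of members minus mirror). The members' median width, 6553 bp, was larger than the mirror set's 4749 bp. The part of width in this difference was not tested.

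Members differed from shared strong regions in width and strength as well, and the features were therefore also compared within classes. In each of 6 width classes the promoter share was lower in members, with differences of -11.7 to -3.41 points, and the interval lay below 0 in 3 of them. Among regions over 10 kb wide, 47.4% of the 154 members lay at promoters against 59.1% of 521 shared regions. The difference weighted by the number of members was -7.59 points. The distal intergenic share was higher in members in 5 of 6 width classes, and at most 5000 bp it was 12.1% against 12.3%. Introns held more members in all 6. Within the 10 classes of summed signal the weighted promoter difference was -5.85 points, with members lower in 9 of 10 classes. Its interval lay below 0 in 3 of the 10, and in 1 class members were higher by 4.27 points. The weighted distal intergenic difference was 6.19 points, with the interval above 0 in 5 of 10 classes.

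Many members lay close to called Nsd2ΔIE signal without touching it. The gap to the nearest Nsd2ΔIE region was 10.2 kb at the median (9.57 to 10.8). It was below 1 kb for 173 members (7.80%), below 5 kb for 714 (32.2%) and below 10 kb for 1093 (49.3%). For 876 members, or 39.5%, the gap was smaller than the member itself was wide. For the 714 members with a gap below 5 kb, the nearest Nsd2ΔIE regions were 705 different regions. Their summed signal had a median of 21699 over the 714 members, and 33.6% of the 714 gaps led to a region in the strongest 25% of the Nsd2ΔIE list. In the mirror set the median gap was 12 kb (11.3 to 12.9) and 27.9% of gaps were below the region's own width. Distal intergenic members stood farther from the other list, with a median gap of 17.8 kb (14.0 to 21.4), than members within 1 kb of a TSS, with 8.88 kb (7.58 to 9.97).

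**Figure D4:**
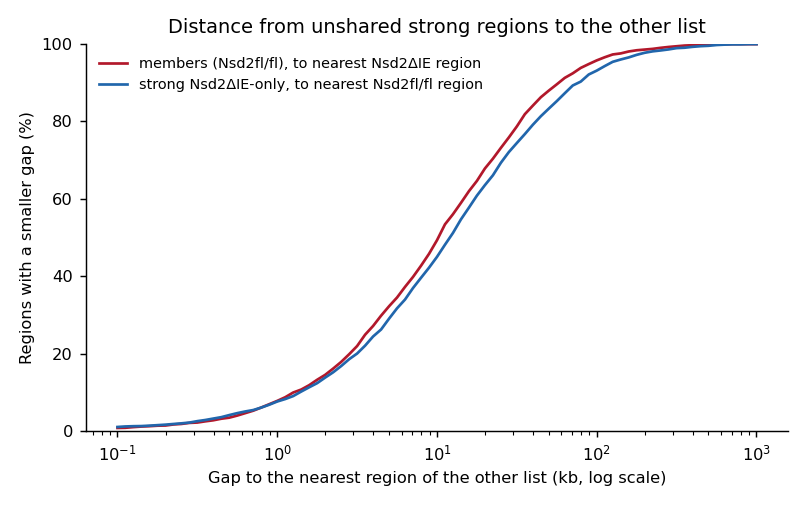
Cumulative share of regions, in percent, against the gap to the nearest region of the other list in kb on a log scale, for the members and for the mirror set. The members' curve lies above that of the mirror set over most of the range, with 49.3% of members and 45% of mirror regions below 10 kb.

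Only 94 members, or 4.24% (3.48% to 5.16%), lay at least 100 kb from any Nsd2ΔIE region. The farthest was a region near Pam, which amidates peptide hormones (chr1:98012405-98019707), in an exon of the transcript Gm51640 and 3.65 kb from the Pam TSS. Its summed signal was 42028 and the nearest Nsd2ΔIE region was 2420 kb away. The next was a promoter region of Gm38795 on chromosome 6, at 637 kb, with a summed signal of 45925. A distal intergenic region nearest to Yeats4, a reader of acylated histones, was at 340 kb and closed the group of 10. These 10 members had modest summed signals of 34450 to 45925, and 4 of them were distal intergenic. No Nsd2ΔIE region was named for any of their 10 genes. With names taken from the nearest gene, the choice by distance made this likely beforehand.

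At the 524 members that covered a TSS, the centre of the part with the highest signal was 589 bp downstream of the TSS at the median, with the middle 50% of values between -1493 bp and 2436 bp, and it lay downstream in 57.6% of these members, as in 57.6% of the shared strong regions over a TSS. Within 1 kb of the TSS lay 25.8% (22.2% to 29.7%) of the maxima. The shared strong regions had a median of 601 bp and 22.6% (19.9% to 25.6%) of maxima within 1 kb, a share whose interval overlapped that of the members. The mirror set had 37.2% (33.1% to 41.5%) of its maxima within 1 kb, and its regions were narrower.

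The authors named 2020 genes for the members, which is 50.2% of the 4026 genes with a strong autosomal Nsd2fl/fl region. A gene could hold both a member and a shared strong region. Of the 2020 genes, 1848 had 1 member, 149 had 2 and 23 had 3 or more. No Nsd2ΔIE region was named for 770 of the genes, or 38.1%, while 1250 had a Nsd2ΔIE region of the same name elsewhere. Regions nearby that were named for a neighbouring gene do not enter these counts. In the mirror set, 41.3% of the genes had no Nsd2fl/fl region named for them. A member and a strong Nsd2ΔIE-only region fell to the same gene 345 times, which is 17.1% of the member genes and 13.0% of the mirror genes. The name is that of the nearest gene, and for 355 of the 773 members placed in an exon or intron the host gene was another one. Predicted genes, RIKEN clones and microRNA genes supplied the name of 41.8% of members and 33.5% of shared strong regions. MicroRNA genes alone supplied 2.17% and 4.22%.

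All 23 genes with 3 or more members also had Nsd2ΔIE regions, between 1 and 22 per gene. The most members by name, 5, were named for the predicted gene Gm52792 on chromosome 5, and all 5 lay in Sdk1, which encodes a cell adhesion molecule. The order by host gene can differ. Fstl4 hosted members with 57269, 42897 and 34402 that were named for it. It also hosted members with 87548, 45157 and 34168 that were named for the predicted gene Gm11186. Hdac4, a class IIa histone deacetylase, had 3, with a summed signal of 81201 in its first intron (chr1:92002193-92014514), 49398 over its TSS and 33669 in the first intron of another transcript, beside 6 Nsd2ΔIE regions. An exon of Hdac4 hosted a further member, with 67303, that was named for another gene. Prkce, a protein kinase C, had 3 with values of 62312, 37385 and 36458, at gaps of 33.7 to 45.8 kb. Cux2, a homeobox factor, had 60980, 36323 and 33881 beside 8 Nsd2ΔIE regions. Lrp8, a lipoprotein receptor, had 64873, 45698 and 34433. Cacna2d1, a calcium channel subunit, had 52804, 50796 and 45475 beside 22 Nsd2ΔIE regions. For each of these genes the Nsd2ΔIE library also listed regions, at other places.

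To place the members in pathways, 11 lists of genes for chromatin, stress, signalling, barrier, lipid and matrix functions were used. Of their 530 genes, 103 had a strong Nsd2fl/fl region and 41 of these had a member, or 39.8% against 50.2% over all genes. The 50.2% also counts predicted genes, RIKEN clones and microRNA genes, which named 41.8% of members but 33.5% of shared strong regions. It is therefore not a like background for lists of genes with known functions. A share without those genes was not computed. In the list of H3K36 methylation writers, erasers and readers, 4 of the 5 genes with a strong region had a member, out of 24. In this list 2 genes had a shared strong region and 2 a region of the mirror set. Smyd2, a lysine methyltransferase, had a member with 54182 in the 5′ UTR of a transcript (chr1:189613605-189623038). Dnmt3b, a de novo DNA methyltransferase with a PWWP domain, had one over its TSS with 41858 (chr2:153502420-153509194), 33.5 kb from any Nsd2ΔIE region. Setd3, counted in this list although it is a SET-domain histidine methyltransferase of actin, had one with 38088. Kdm4b, an H3K9 and H3K36 demethylase, had one with 36285. Dnmt3a itself hosted a member with 51561 in an exon, which the authors named for its antisense gene.

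Of 49 other histone modifiers, 11 had a strong region and 6 a member. Besides Kmt2b and Hdac4 these were Kat6b, a histone acetyltransferase, with 57406 and Hdac5 with 49559 at 687 bp from its TSS, followed by Cbx2 and Kdm3a. No Nsd2ΔIE region was named for Kmt2b or Hdac5.

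In the unfolded protein response and ER-associated degradation, 2 of 4 genes with a strong region had a member, out of 37. Ern2, the epithelial paralogue of the ER stress sensor IRE1, had a member with 53771 that began 148 bp from its TSS (chr7:121771129-121779797). Its nearest Nsd2ΔIE region, at Plk1, was 3.05 kb away. Sec61a1, a subunit of the ER translocation channel, had one with 39821 in an exon. Ern1, which encodes IRE1α, had only 1 Nsd2fl/fl region, at rank 13893 of the list, and was not a member.

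In the MAP kinase cascade 2 of 8 genes had a member, out of 53, and both encode phosphatases that inactivate MAP kinases. The Dusp1 member covered the CpG-rich start shown above, from 4.78 kb upstream to 4.47 kb downstream (chr17:26722979-26732223). It had a summed signal of 60705 and a gap of 10.9 kb, and no Nsd2ΔIE region was named for Dusp1. The Dusp7 member, with 59655, rests on the name of the nearest gene, since it lay 11.9 kb upstream of the Dusp7 TSS. It was annotated to the 3′ UTR of a transcript and was 2.13 kb from a Nsd2ΔIE region. A further 4 genes of this list, Map4k5, Mapk14, Mapk8ip3 and Mapk9, hosted members that were named for neighbouring genes.

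Among genes of junctions, adhesion and mucus, 2 of 7 had a member, out of 47. Cldn4, a claudin of tight junctions, had a member of 5971 bp and 37337 over its TSS (chr5:134970763-134976733), with its maximum 176 bp downstream of the start. The nearest Nsd2ΔIE region was 79.3 kb away. Tjp1, which encodes ZO-1, had a member with 37346 in an intron, 17.4 kb from the nearest of its 2 Nsd2ΔIE regions. Of 37 intestinal epithelial transcription factors, 7 had a strong region and 4 a member. Isx, an intestine-specific homeobox factor that represses vitamin A uptake genes, had 2, with 50548 over the CpG-poor start shown above (chr8:75598531-75607402) and 34619 upstream of it. The authors named 5 Nsd2ΔIE regions for Isx. Sox9, a factor of crypt progenitors, had a distal intergenic member with 39672 only 119 bp from a Nsd2ΔIE region. Tcf7l2, the Wnt effector of the crypt, had 37290 in an intron, and Spdef, a goblet cell factor, had 35098.

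**Figure D5:**
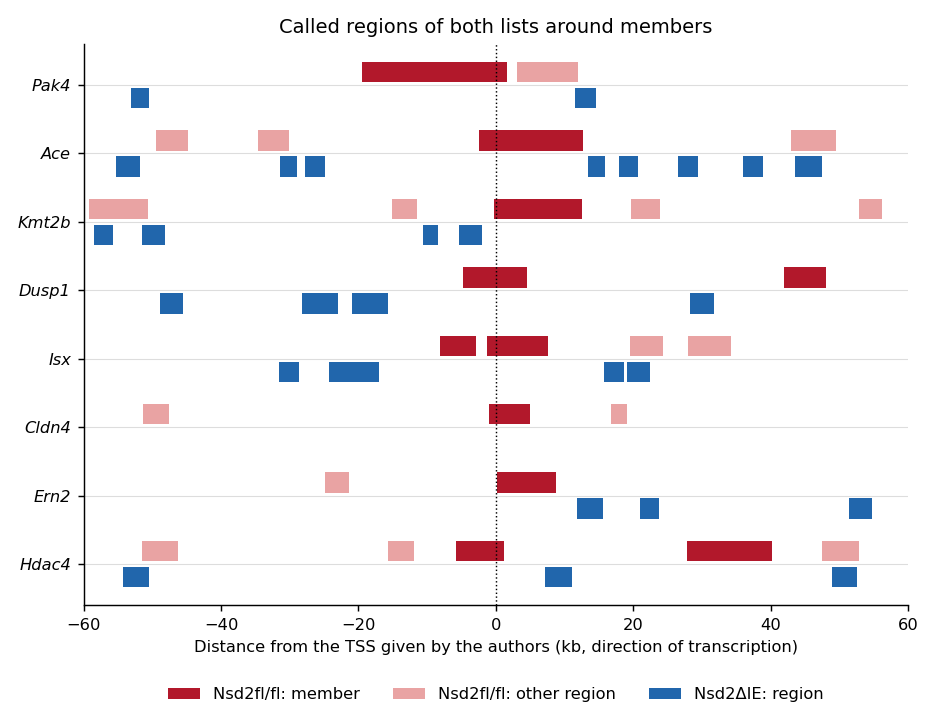
Called regions of both lists within 60 kb of the TSS that the authors give, in kb along the direction of transcription, for 8 genes with members. Upper bars are Nsd2fl/fl regions, with members in dark red, and lower bars are Nsd2ΔIE regions. No Nsd2ΔIE region overlaps a member, and within this window none is listed around Cldn4, while 8 are listed around Ace.

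In fatty acid and cholesterol metabolism, 4 of 13 genes with a strong region had a member, out of 67. Among them were Dgat2, which makes triglycerides, with 54730 in an exon, Abcg1, a cholesterol exporter, with 45858, and Lrp1, an endocytic receptor, with 34320. No Nsd2ΔIE region was named for Lrp1. Strong regions found only in the Nsd2ΔIE list were named for 15 genes of this list and for 1 to 9 genes of each other list of the 11. How many genes of a list had any strong Nsd2ΔIE region was not counted. These numbers therefore have no share to set beside the 51.0% of strong Nsd2ΔIE regions without a counterpart. Of the Wnt and Notch genes, 5 of 19 had a member, out of 61, while 15 had a shared strong region. Tcf7l1, a repressor of Wnt targets, had 68123 in an intron and 49788 over its TSS, and it hosted another with 72785 (chr6:72735515-72745487). On this minus-strand gene the member over the TSS ended at 72766115, with the TSS at 72766028. It thus reached only part of the CpG-rich window shown above. Wnt11 had 36432, Maml2, a Notch coactivator, had 36109, and Tcf7l2 was given above. In the TGF-β and BMP group 3 of 7 had a member, out of 41, namely Inhbb, an activin subunit, with 49781, Acvr2a, an activin receptor, with 34915, and Smad6, an inhibitory Smad, with 34343.

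Of the cytokine, Toll-like receptor and NF-κB genes, 4 of 11 had a member, out of 68. Jak3, a kinase of cytokine receptors, had 74051 over its TSS (chr8:72127422-72140319) and no Nsd2ΔIE region named for it. Tnfrsf1a, a TNF receptor, had 65655, Tlr5, the flagellin receptor, had 50704 in distal intergenic sequence, and Rela, an NF-κB subunit, had 46836 over its TSS at 2.38 kb from a Nsd2ΔIE region. Of the collagen, laminin and integrin genes, 6 of 14 had a member, out of 50. Col27a1 had 58822 over its TSS, Col23a1 had 47882 and 36609, Itga9 had 41260 and Itga11 had 39045. A list share above or below 50.2% is a description of counts that are small in each list.

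Markers of cell identity were counted in the same way. Of 82 markers of colonocytes, goblet, stem and enteroendocrine cells, immune cells, fibroblasts, smooth muscle, endothelium and enteric neurons or glia, 14 had a strong Nsd2fl/fl region. Of these, 2 had a member, against 50.2% of all genes with a strong region, and such counts are small. The 50.2% has the limit given above for the lists. Regions of the mirror set were named for 2 markers each of colonocytes, of goblet, stem and enteroendocrine cells, of endothelium and of neurons or glia. They were named for 1 marker each of immune cells and fibroblasts and 0 of smooth muscle. How many markers had any strong Nsd2ΔIE region was not counted, so these numbers have no share beside them. The 2 markers with a member were Chga and Spdef. Both belonged to secretory epithelium, Chga, a granin of enteroendocrine cells, with 35826 at 98 bp from a Nsd2ΔIE region, and Spdef. The Chga member rests on the name of the nearest gene, since it lay in an exon of Itpk1 and 28.1 kb from the Chga TSS. The lists for colonocytes, immune cells, fibroblasts, smooth muscle, endothelium and neurons or glia had no member named for their genes. Mylk, of smooth muscle, and Vwf, of endothelium, hosted members named for other genes. A histone mark does not measure expression, and in whole tissue a region lost from some cells and a region of fewer cells cannot be told apart.

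The authors' annotation gave a transcription factor family to 94 members at 83 genes, 4.24% of members against 4.91% of shared strong regions. Homeobox genes, with 18, and C2H2 zinc finger genes, with 16, were the most frequent, and shared strong regions had 18 and 21. The following were picked after their values were seen, as the strongest over a TSS. Snai3, a Snail family repressor, had 84194, Cic, a repressor of growth factor response genes, had 60430, Egr3, an immediate early factor, had 55728, and Tcf3, an E protein, had 52393.

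The members were spread over all 19 autosomes. The share of strong regions that were members was lowest on chromosome 4, with 148 of 411 or 36% (31.5% to 40.8%), and highest on chromosome 18, with 60 of 103 or 58.3% (48.6% to 67.3%). Chromosomes 10, 15 and 2 followed at the low end with 36.1%, 36.7% and 38.2%, and chromosomes 14, 13 and 3 at the high end with 56.1%, 56.1% and 54.7%. The 4 chromosomes at the high end had 0.679 to 1.30 strong regions per Mb, and the 4 at the low end had 1.61 per Mb on chromosome 10 and 2.56 to 2.80 per Mb on the others. Chromosomes 11 and 7, with the most strong regions per Mb, 3.73 and 3.13, stood between with 46.2% and 44.7%. In the mirror set, chromosome 4 had 49.5% and chromosome 3 had 66.1%.

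Neighbouring members were 299 kb apart at the median, and 84 neighbouring pairs were less than 10 kb apart. Stretches of Nsd2fl/fl regions that no Nsd2ΔIE region interrupted held 1 member in 1808 cases, 2 in 164, 3 in 23 and 4 in 3. The stretches with 4 each held 5 Nsd2fl/fl regions. They lay at Anxa6, an annexin, with Ccdc69 and Gm2a, a lysosomal lipid-binding protein (chr11:54908122-54980979, 72.9 kb), at Nacc2, a BTB-domain repressor (chr2:25980336-26065721, 85.4 kb), and at Lctl and Snapc5 (chr9:63995611-64098372, 103 kb). The 2 next in order held 3 members each but were far longer. That around Fras1, Anxa3 and Bmp2k on chromosome 5 spanned 545 kb with 9 Nsd2fl/fl regions, and that around Vipr2 and Ptprn2 on chromosome 12 spanned 401 kb with 7.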

How the data were processed

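H3K36me2 CUT&Tag libraries of mouse colon, 1 per genotype, were analysed as peak lists. The authors called regions in each library without pooling and deposited, for each region, the summed signal (coverage added over the region, with no scaling to depth stated), position, width, nearest gene, distance to TSS and feature. The submitters' processing notes name Bowtie2, deepTools, SEACR and ChIPseeker, without versions, and the human build hg38, which cannot apply to these mouse lists. Of 8935 genes with equal length in the lists and in GRCm38.p6, 187 had the same start, so the lists use another build and their coordinates were printed unchanged. The other processed data of the study were not used here. Depth is unknown.

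Regions were ranked by summed signal in their own list, and an overlap of at least 1 bp was counted as shared. No region overlapped another of its own list. Shares, differences and medians were computed with Python 3.11.15, pandas 2.3.3, numpy 2.4.6 and scipy 1.17.1, and figures were drawn with matplotlib 3.10.9. The functions were tested on simulated lists. Width classes ended at 5000, 6000, 7000, 8000 and 10000 bp. Promoter sequences came from RefSeq (GRCm38.p6). Members named were the 10 with the highest summed signal, the 10 widest, the 10 with the highest signal per bp, the 10 farthest from the other list, the 2 on either side of the threshold, genes with 3 or more members, the 5 uninterrupted stretches with the most members and then the most regions and at most 4 genes for each list, those with the highest summed signal, with host genes beside them; a selection of these is given, and some are not reported here. Members and lists were chosen with earlier results of these data known. The alternatives were other limits of strength, signal per bp, all chromosomes, 3 other definitions of overlap, a promoter of 1 kb, genes overlapped by the member, and width classes.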

Additional observations from a re-analysis of the deposited data

How the results depend on the processing

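Of 56 values recomputed under 11 alternative settings, 33 moved. The other 23 stayed within the interval of the reported value or, for counts, within 1.5 times. With all chromosomes included the members were the same regions, so their values in that setting could not change and are no check. A reversal was possible only for the promoter difference, since counts, shares and medians have no sign to change. None of its 10 alternative values reversed. The promoter share of members minus that of shared strong regions was below 0, with its interval, in all 10 settings tried, and it moved to -5.59 points in the strongest 10%, to -4.61 when at least 50% of both regions had to overlap, and to -5.85 within the 10 classes of summed signal, a setting chosen after seeing the data. With the strongest 10%, there were 581 members at 569 genes, 29.2% of strong regions were members, 46.6% of members lay at promoters and 9.98% were distal intergenic, the median width was 8830 bp and the median gap 8340 bp. With the strongest 50%, these were 5543 members, 4655 genes, 55.5%, 32.6%, 18.3%, 5408 bp and 12648 bp. Ranking by signal per bp gave a share of 56.1%, promoters 31.2%, distal intergenic 18.3%, a width of 3492.5 bp and a gap of 11167 bp. Counting regions within 5 kb as shared gave 30.1%, 34.5% and 17.6% for the share of members, promoters and distal intergenic sequence. Requiring 50% of both regions gave 4017 members, 80.5%, 41.4%, 11.1% and a width of 7006 bp. With the Nsd2ΔIE list cut to the 19976 strongest regions, 48.0% were members. A promoter of 1 kb held 29.0% of members, and 1138 genes were overlapped by their member. No paired analysis was possible because there was only 1 library for each genotype. The unknown depth and scaling of the libraries limit every statement on absence from a list, since a region below the Nsd2ΔIE limit is not listed.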
